A study of Mus musculus with 12 samples.

Results

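Fibroblast growth factor (FGF) signalling was followed through 10 genes in granule cell progenitors of the postnatal mouse cerebellum. The set held 6 ligand-family genes (Fgf1, Fgf2, Fgf5, Fgf8, Fgf9 and Fgf13) and 4 receptor genes (Fgfr1, Fgfr2, Fgfr3 and Fgfr4). A gene was taken where its symbol in the array's annotation was exactly one of these names. All 10 were found, on 24 probe sets out of 34945 with 1 gene symbol, and they made up 10 of the 18193 genes tested. Fgf2 and Fgf8 had 1 probe set each and the other 8 genes had several, of which the one with the highest mean over all arrays stood for the gene.

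The SmoM2 groups came from Atoh1-CreER/+; R26LSL-SmoM2-YFP mice given 200 µg of tamoxifen per g of body weight at P2, and the wild type groups from mice without the activated allele, all on a mixed C57BL/6 and Swiss Webster background and all taken at P8. SmoM2 is an activated form of Smoothened, the membrane protein that passes on the hedgehog signal, and Atoh1-CreER switches it on in cells that express the granule lineage factor Atoh1. There were 4 groups of 3 arrays: SmoM2 hemisphere, wild type hemisphere, SmoM2 vermis and wild type vermis, where hemispheres are the lateral lobes of the cerebellum and the vermis is its midline. Each array was made from cells pooled from 5 mice and enriched on a Percoll gradient, a density step that enriches small cells but does not purify one cell type. The sources used here do not say if wild type mice were also given tamoxifen.

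Secreted FGFs bind receptor tyrosine kinases, the FGF receptors, together with heparan sulphate on the cell surface, and the receptors signal chiefly through the RAS and ERK kinases. The signal turns on its own inhibitors, such as the Sprouty and Dusp proteins, and the ETS transcription factors Etv4 and Etv5. In the developing hindbrain Fgf8 marks the organizer from which the midbrain and cerebellum are patterned, and in cultured mouse granule cell progenitors Fgf2 is known to oppose proliferation driven by Sonic hedgehog. Fgf13 belongs to a separate branch, the FGF homologous factors, which stay inside the cell and bind voltage-gated sodium channels.

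All values below are log2 expression values on the scale the authors deposited, so a difference of 1 is a doubling. A difference passed where limma's moderated test gave an adjusted p under 0.05 (Benjamini-Hochberg, over all 18193 genes of a comparison). The lower quartile of an array was 3.24 to 3.42, its median 4.81 to 4.87 and its upper quartile 6.90 to 7.10. Within a group the arrays correlated at 0.989 to 0.997. The progenitor factor Atoh1 averaged 8.98 in SmoM2 and 8.16 in wild type hemisphere, and 8.71 in SmoM2 and 7.85 in wild type vermis. Of the 7 progenitor markers, none of which lay under the lower quartile on all arrays, Atoh1 alone rose, while Pax6 and Meis1 fell in each region and Barhl1 in hemisphere cells, so 3 fell there and 2 in vermis cells. Their summed linear level was 10901 to 11794 in SmoM2 and 12640 to 14431 in wild type hemisphere, and 11354 to 11950 in SmoM2 and 12493 to 14415 in wild type vermis. All 4 measured hedgehog readout genes rose in both regions, among them Gli1, a transcription factor activated by the pathway (by 1.68 in hemisphere and 1.5 in vermis). Of 9 measured oligodendrocyte markers 7 fell in each region, with a summed linear level of 3723 to 5461 in SmoM2 and 9752 to 11044 in wild type hemisphere, and 4017 to 5975 in SmoM2 and 12032 to 16817 in wild type vermis. Of 8 microglia markers 5 fell in each region, as did 4 of 9 markers of differentiating granule neurons. Of those 9, 1 rose in hemisphere cells (Nfia, by 0.41) and 0 in vermis cells. Of 3 measured markers of GABAergic interneurons 2 fell in hemisphere and 3 in vermis cells. Of 8 markers of endothelial cells and pericytes 0 fell in hemisphere and 4 in vermis cells. Over all genes 7.18% fell in hemisphere and 9.46% in vermis cells. The 3′ minus 5′ difference of Actb, a measure of RNA quality, averaged 0.98 in SmoM2 and 0.64 in wild type hemisphere, and 0.96 in SmoM2 and 0.89 in wild type vermis. The dap control, a bacterial transcript spiked in to follow the labelling, averaged 11.56 in SmoM2 and 9.89 in wild type hemisphere, without overlap, and 11.47 in SmoM2 and 11.32 in wild type vermis. The part of these cells, of the labelling control and of RNA quality in the FGF values was not tested. The p-values measure the spread between these pooled samples, which the sources used here do not say came from separate litters.

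In hemisphere progenitors 6 of the 10 genes rose with SmoM2 and 0 fell, against 7.62% of all genes that rose, 7.18% that fell and 14.8% that passed either way. With quantile normalization repeated on all probe sets, 1076 of all genes rose in the hemisphere and 1538 fell, so the split over all genes depends on the scaling. In the vermis the count was again 6 of 10 higher and 0 lower, against 7.56% of all genes higher, 9.46% lower and 17% either way. They were Fgf5, Fgf8, Fgf9, Fgfr1, Fgfr2 and Fgfr4 in each region, so 3 ligands and 3 receptors. The median difference of the 10 genes was 0.60 in the hemisphere and 0.59 in the vermis, against -0.05 and -0.06 over all genes. SmoM2 and wild type arrays did not overlap for 7 of the 10 genes in the hemisphere and for 8 in the vermis, where 31.7% and 39.8% of all genes did not overlap. The 10 genes were chosen with earlier results of these data known, so these shares describe them and do not test for an enrichment.

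**Figure D1:**
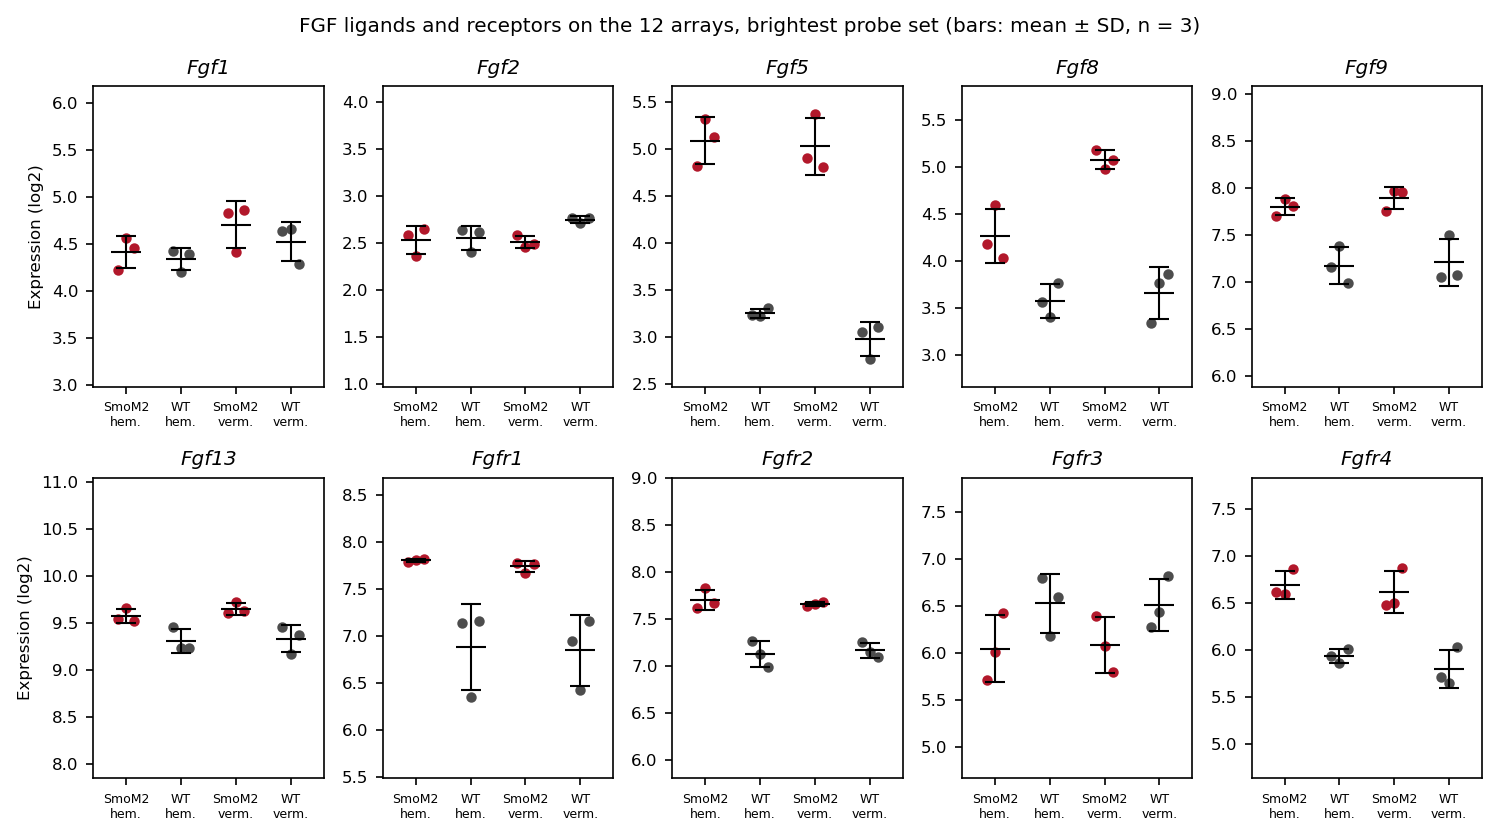
Expression of the 10 genes (y axis, log2, own range for each gene but the same span) on each of 12 arrays, by the brightest probe set. Points are arrays, red for SmoM2 and grey for wild type, and bars are mean ± SD (n = 3). For Fgf5 the 6 SmoM2 arrays lay between 4.81 and 5.37 and the 6 wild type arrays between 2.77 and 3.31.

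Fgf5, a ligand best known in mice for ending the growth phase of the hair follicle, had the largest difference of the set. Its probe set 1438883_at read 4.82, 5.32 and 5.13 in SmoM2 hemisphere, against 3.23, 3.22 and 3.31 in wild type hemisphere. In the vermis the SmoM2 arrays read 4.90, 5.37 and 4.81, against 3.05, 2.77 and 3.11 in wild type. Every SmoM2 array was higher than every wild type array, and all 6 wild type arrays lay below their own lower quartile while 0 of the 6 SmoM2 arrays did. The difference was 1.84 ± 0.16 in the hemisphere (SE, n = 3 per group, 3.58-fold, limma adjusted p = 2.36e-06) and 2.05 ± 0.16 in the vermis (4.13-fold, adjusted p = 9.32e-07). Because the wild type values sit below the lower quartile, and the arrays carry no detection call, the wild type level is known only as low. The arrays' other Fgf5 probe set, 1426186_a_at, did not pass: SmoM2 and wild type averaged 3.73 ± 0.23 and 3.64 ± 0.30 in the hemisphere (SD, n = 3) and 3.97 ± 0.24 and 3.51 ± 0.24 in the vermis. Its differences were 0.09 (adjusted p = 0.789 over all probe sets) and 0.47 (0.108). In wild type this set was the brighter one (3.64 and 3.51, against 3.25 and 2.98 for 1438883_at in hemisphere and vermis). So the SmoM2 arrays decided which set stood for Fgf5, and that choice favoured the larger difference. Averaged over both sets Fgf5 passed at 0.96 (adjusted p = 0.000861) and 1.26 (8.33e-05).

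The promoter of Fgf5 is shown because this ligand had the largest difference, and that of Fgfr4 as an example of a receptor that rose alongside it. Both sequences are from RefSeq. They run 5′ to 3′ on the forward strand of GRCm38.p6, from 250 bases before the annotated start to 50 after it, at chr5:98253934-98254233 for Fgf5 and chr13:55152568-55152867 for Fgfr4. Capitals mark the reverse complement of CCACCCA, the core of the Gli binding motif.
Fgf5: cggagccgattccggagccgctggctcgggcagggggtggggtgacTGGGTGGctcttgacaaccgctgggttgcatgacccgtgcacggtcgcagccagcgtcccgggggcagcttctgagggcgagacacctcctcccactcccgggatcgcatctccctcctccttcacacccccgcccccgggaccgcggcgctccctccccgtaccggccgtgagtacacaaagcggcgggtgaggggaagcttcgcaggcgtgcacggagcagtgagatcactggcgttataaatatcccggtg
Fgfr4: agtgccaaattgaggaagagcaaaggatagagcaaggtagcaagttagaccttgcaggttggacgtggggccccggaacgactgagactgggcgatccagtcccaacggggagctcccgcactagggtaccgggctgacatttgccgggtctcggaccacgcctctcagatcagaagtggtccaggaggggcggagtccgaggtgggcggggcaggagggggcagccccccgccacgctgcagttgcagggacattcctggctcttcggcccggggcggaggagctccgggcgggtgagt
The full Gli motif GACCACCCA, searched on both strands, was found in 0 of the 11 windows of the 7 genes with a RefSeq promoter entry, and in 83 of 32851 promoters (0.253%). The core alone, a search added after the data were seen, was found in 1 of the 11 windows, that of Fgf5, where it began 204 bases before the start on the opposite strand, and in 9.3% of all promoters. The Fgf5 window had 68.3% G and C and 29 CG pairs, the Fgfr4 window 65.3% and 20, against medians of 52.7% and 7 over all promoters.

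Fgf8, the ligand of the hindbrain organizer, also rose in both regions, and its SmoM2 arrays stood further above wild type in the vermis. In the hemisphere its 1 probe set, 1451882_a_at, read 4.18, 4.59 and 4.03 in SmoM2, against 3.56, 3.40 and 3.76 in wild type. In the vermis it read 5.18, 4.98 and 5.07 in SmoM2, against 3.34, 3.76 and 3.86 in wild type. The groups did not overlap in either region, and the lowest SmoM2 vermis array lay above the highest SmoM2 hemisphere array. The difference was 0.69 ± 0.16 in the hemisphere (1.62-fold, limma adjusted p = 0.0103) and 1.42 ± 0.16 in the vermis (2.68-fold, adjusted p = 3.46e-05). Without moderation of the variances the hemisphere call was lost (adjusted p = 0.0501). One wild type array lay below its lower quartile, so Fgf8 was dim in wild type too.

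Fgf9, a ligand required in the mouse cerebellum for the Bergmann glial scaffold and granule neuron migration, rose by a smaller and similar amount in both regions. Probe set 1420795_at read 7.71, 7.89 and 7.81 in SmoM2 hemisphere, against 7.16, 7.39 and 6.99 in wild type hemisphere. Vermis arrays read 7.76, 7.97 and 7.96 in SmoM2, against 7.06, 7.50 and 7.08 in wild type. All SmoM2 arrays were above all wild type arrays, and wild type replicate 2 was the highest wild type array in both regions. The difference was 0.63 ± 0.14 in hemisphere cells (adjusted p = 0.00693 by limma) and 0.68 ± 0.14 in vermis cells (adjusted p = 0.00375). The other Fgf9 probe set, 1438718_at, passed as well, with differences of 0.63 (adjusted p = 0.0068 over all probe sets) and 0.86 (0.00074).

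Fgf1, a ligand able to bind all FGF receptors, did not pass in either region. It averaged 4.42 ± 0.17 in SmoM2 and 4.35 ± 0.12 in wild type hemisphere (SD, n = 3), and 4.71 ± 0.25 in SmoM2 and 4.53 ± 0.21 in wild type vermis. The differences were 0.08 (95% interval -0.24 to 0.39) and 0.18 (-0.13 to 0.49), and its arrays overlapped throughout. Its 2 dimmer probe sets did not pass either, with differences of -0.40 and -0.31 in the hemisphere and of -0.16 and -0.03 in the vermis. Fgf2 lay below the lower quartile on all 12 arrays, with values of 2.36 to 2.65 in SmoM2 and 2.41 to 2.77 in wild type. Its differences were -0.03 (-0.25 to 0.20) in the hemisphere and -0.24 (-0.46 to -0.01, adjusted p = 0.131) in the vermis. At such values the array cannot tell a low level from none, so a fall of Fgf2 was not detectable here. On its 1 probe set no rise above the lower quartile was seen in SmoM2.

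Fgf13, the homologous factor, had non-overlapping groups in both regions but small differences. Probe set 1418497_at read 9.54, 9.66 and 9.52 in SmoM2 hemisphere, against 9.45, 9.23 and 9.23 in wild type hemisphere, and 9.60, 9.72 and 9.63 in SmoM2 vermis, against 9.45, 9.17 and 9.37 in wild type vermis. The difference of 0.27 ± 0.11 in the hemisphere missed the threshold (adjusted p = 0.101), as did that of 0.32 ± 0.11 in the vermis (adjusted p = 0.0522). The dimmer probe set 1418498_at passed in both regions. It averaged 4.73 ± 0.09 in SmoM2 and 4.13 ± 0.14 in wild type hemisphere, and 5.06 ± 0.12 in SmoM2 and 4.30 ± 0.19 in wild type vermis, with differences of 0.60 (adjusted p = 0.00627 over all probe sets) and 0.75 (0.00115). With the mean of both probe sets Fgf13 passed in both regions (0.43 with adjusted p = 0.00731 for the hemisphere, 0.54 with 0.00164 for the vermis). Leaving out wild type hemisphere replicate 1 brought the hemisphere difference past the threshold (0.35, 0.0386), and leaving out that array, wild type hemisphere replicate 3 or wild type vermis replicate 1 did so in the vermis (0.036, 0.0465 and 0.0395). Fgf13 is X-linked, and sex-linked transcripts differed in level between the groups: the Y-linked Eif2s3y averaged 7.15 in SmoM2 and 8.08 in wild type hemisphere and 7.23 in SmoM2 and 8.16 in wild type vermis, and Xist, made from the inactive X, averaged 11.72 and 11.34, and 11.70 and 11.10. Their part in the Fgf13 values was not tested.

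**Figure D2:**
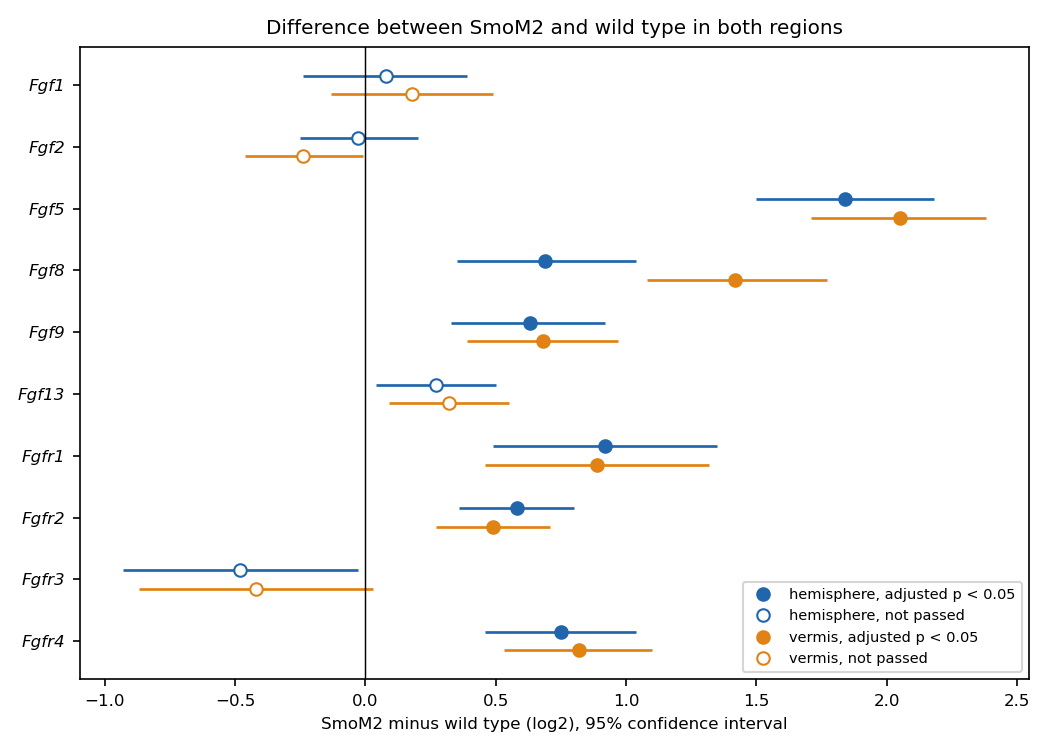
Difference between SmoM2 and wild type (x axis, log2, with 95% confidence interval, n = 3 arrays per group) for each gene by its brightest probe set, hemisphere in blue above vermis in orange. Filled points passed an adjusted p of 0.05 over all genes. Fgf5 lay furthest to the right in both regions, and 6 genes had filled points in each.

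Among the receptors, Fgfr1, a receptor found widely in neural progenitors, showed an even level in SmoM2 and an uneven one in wild type. Probe set 1424050_s_at read 7.79, 7.81 and 7.82 in SmoM2 hemisphere, against 7.14, 6.35 and 7.16 in wild type hemisphere. In the vermis it read 7.78, 7.67 and 7.77 in SmoM2, against 6.95, 6.43 and 7.16 in wild type. All SmoM2 arrays lay above all wild type arrays, and wild type replicate 2 was the lowest array in both regions. The difference was 0.92 ± 0.20 in the hemisphere (1.9-fold, limma adjusted p = 0.00695) and 0.89 ± 0.20 in the vermis (1.85-fold, adjusted p = 0.00813). It passed without any one array, with adjusted p of 0.00333 to 0.0263 in the hemisphere and 0.00128 to 0.0413 in the vermis, but not in the vermis without moderation (0.0517). Of the dimmer probe sets, 1436551_at passed in the hemisphere (0.58, adjusted p = 0.0432 over all probe sets) and not in the vermis (0.41, 0.135), while 1425911_a_at passed in the vermis (0.86, 0.00923) and not in the hemisphere (0.29, 0.326). For neither did the SmoM2 difference pass as unequal between regions (interaction 0.17 with unadjusted p = 0.489 for 1436551_at, and -0.56 with unadjusted p = 0.0492 for 1425911_a_at, both with limma adjusted p = 1). Averaged over all Fgfr1 sets the hemisphere difference was 0.60 (adjusted p = 0.00256).

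Fgfr2, a receptor found in radial glia as well as in epithelia, rose on its brightest probe set. That set, 1433489_s_at, read 7.62, 7.83 and 7.68 in SmoM2 hemisphere, against 7.27, 7.13 and 6.99 in wild type hemisphere, and 7.64, 7.66 and 7.69 in SmoM2 vermis, against 7.26, 7.15 and 7.10 in wild type vermis. The groups did not overlap, and the SmoM2 vermis arrays had an SD of 0.03. Its difference was 0.58 ± 0.10 in hemisphere cells (adjusted p = 0.0016) and 0.49 ± 0.10 in vermis cells (adjusted p = 0.00493), both by limma. Neither of the 2 dimmer probe sets passed, and they lay on either side of 0: 1420847_a_at differed by 0.15 and 0.22, and 1443211_at, below the lower quartile on 9 of 12 arrays, by -0.43 and -0.21. With the mean of all 3 sets in place of the brightest, the Fgfr2 call was lost (0.10, adjusted p = 0.595, and 0.17, 0.324).

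Fgfr4, a receptor best known for its part in bile acid control in the liver, rose likewise on its brightest probe set. That set, 1418596_at, read 6.61, 6.59 and 6.86 in SmoM2 hemisphere, against 5.93, 5.86 and 6.01 in wild type hemisphere. Vermis values were 6.47, 6.50 and 6.87 in SmoM2, against 5.71, 5.65 and 6.03 in wild type. No SmoM2 array reached down to the wild type range, and replicate 3 was the highest array of each of the 4 groups. The difference was 0.75 ± 0.13 in the hemisphere (limma adjusted p = 0.00175) and 0.82 ± 0.13 in the vermis (adjusted p = 0.00085). None of the 4 other probe sets passed, with differences between -0.14 and 0.27 in the hemisphere and between -0.23 and 0.14 in the vermis. One of those sets lay below the lower quartile on all 12 arrays and another on 8. With the mean of all 5 sets the Fgfr4 call was lost (0.19, adjusted p = 0.265, and 0.12, 0.473).

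Fgfr3, in the brain a receptor chiefly of astroglia, was the only receptor with negative differences in both regions, and neither passed. Probe set 1421841_at read 5.71, 6.01 and 6.42 in SmoM2 hemisphere, against 6.80, 6.18 and 6.60 in wild type hemisphere, and 6.39, 6.07 and 5.80 in SmoM2 vermis, against 6.28, 6.44 and 6.82 in wild type vermis. The genotypes overlapped in both regions. The differences were -0.48 ± 0.21 (95% interval -0.93 to -0.03, limma adjusted p = 0.138) and -0.42 ± 0.21 (-0.87 to 0.03, adjusted p = 0.175). The dimmer set 1425796_a_at did not pass (-0.18 and -0.21). Astroglial markers moved both ways: of 12, all measured, 3 rose and 4 fell in each region, and their summed linear level ran from 8945 to 12090 in SmoM2 and 12886 to 15834 in wild type hemisphere, and from 9909 to 13221 in SmoM2 and 12677 to 15210 in wild type vermis. None of the 12 lay below the lower quartile on all arrays. Their part in the Fgfr3 values was not tested, and in these bulk samples fewer cells of a type and less RNA per cell cannot be told apart.

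**Figure D3:**
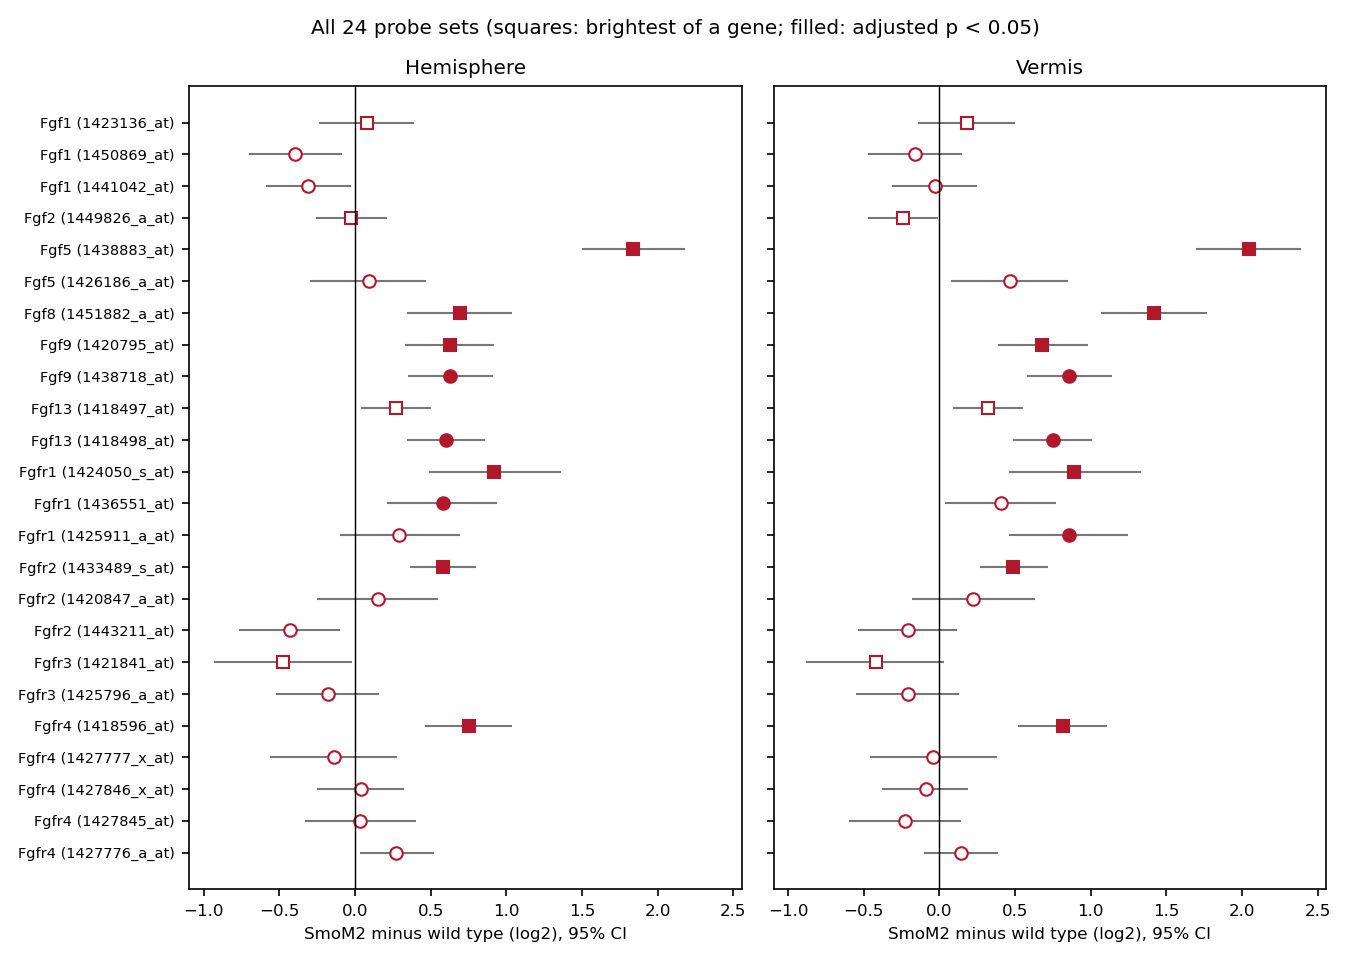
Difference between SmoM2 and wild type (x axis, log2, with 95% confidence interval, n = 3 arrays per group) for all 24 probe sets, hemisphere left and vermis right, from a fit over every probe set. Squares are the brightest set of each gene and filled symbols passed an adjusted p of 0.05. Both Fgf9 sets are filled in each panel, while for Fgf5, Fgfr2 and Fgfr4 the brightest set alone is.

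In that fit over all 45037 probe sets, 10.7% passed in the hemisphere and 11.2% in the vermis. The 6 genes that passed by their brightest set did so there too. Several sets of one gene measure overlapping or neighbouring stretches of the same transcripts, so they are not separate samples of the gene.

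Set against each other, hemisphere and vermis did not pass as different in any of these genes, though Fgf8 in SmoM2 differed by -0.81. In SmoM2 progenitors 0 of the 10 genes passed by limma, where 0.0605% of all genes did. There 1 of the 10 and 661 of all 18193 genes had an unadjusted p under 0.05. In wild type 0 of the 10 passed, where 0.187% of all genes did, and 0 of the 10 and 1149 of all genes had an unadjusted p under 0.05. Hemisphere and vermis arrays did not overlap for 2 of the 10 genes in SmoM2 (Fgf8 and Fgfr1, background 10.7%) and for 2 in wild type (Fgf2 and Fgf5, background 8.77%). The wild type differences for those were -0.19 for Fgf2 (adjusted p = 0.873) and 0.27 for Fgf5 (0.901), both on dim values. For the interaction, the SmoM2 difference in the hemisphere minus that in the vermis, 0 of the 10 genes and 0 of all genes passed (0%), and 1 of the 10 and 564 of all genes had an unadjusted p under 0.05.

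The gene under an unadjusted 0.05 in both tests was Fgf8. In SmoM2 its hemisphere arrays were lower than the vermis arrays by 1.00, 0.39 and 1.04 in replicates 1, 2 and 3, so lower in 3 of 3. In wild type the hemisphere was higher by 0.22 in replicate 1 and lower by 0.36 and 0.10 in replicates 2 and 3, so there was no common direction. The SmoM2 difference between regions was -0.81 (95% interval -1.15 to -0.46, unadjusted p = 0.00019 by limma across all genes, adjusted p = 0.173). Treating hemisphere and vermis arrays of one number and genotype as a random block brought it past the threshold (adjusted p = 0.027), as did array quality weights (-0.87, 0.0102), while a fixed block within genotype did not (0.133). It passed under 2 of 24 alternatives at most. The random block took 1 correlation, 0.36, for all genes. In SmoM2 the Fgf8 deviations of hemisphere and vermis from their group means were -0.09 and 0.11, 0.33 and -0.09, and -0.24 and -0.01 in replicates 1 to 3. So Fgf8 itself did not show this pairing in SmoM2. The interaction was -0.73 ± 0.23 (unadjusted p = 0.00651, adjusted p = 1), and its adjusted p ran from 0.444 to 1 over the alternatives. The wild type difference was -0.08 (-0.43 to 0.27). For the other 9 genes the interaction lay between -0.21 and 0.21.

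**Figure D4:**
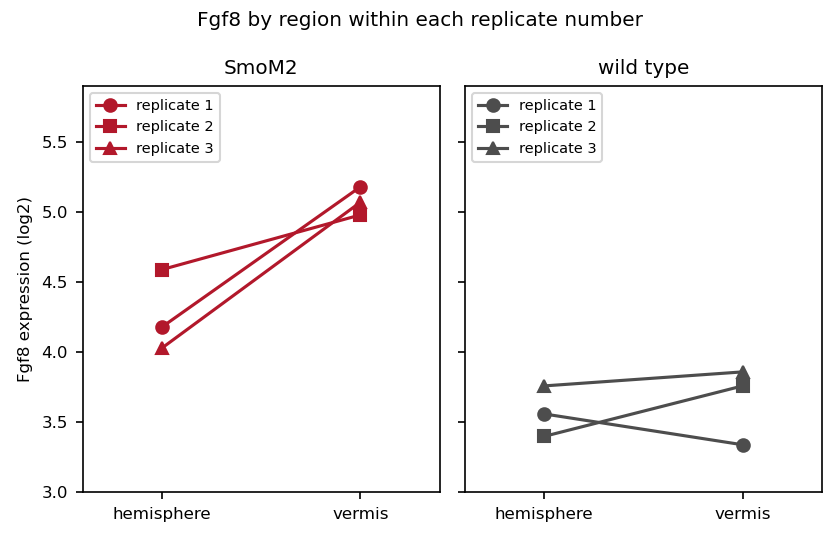
Fgf8 expression (y axis, log2) in hemisphere and vermis, SmoM2 left and wild type right, with a line joining the arrays of one replicate number. All 3 SmoM2 lines run upward to the vermis, by 1.00, 0.39 and 1.04, and the 3 wild type lines do not share a direction.

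The order of the 4 groups was alike in Fgf8, Fgf9 and Fgf13, with SmoM2 vermis first, then SmoM2 hemisphere, wild type vermis and wild type hemisphere. For Fgf9 and Fgf13 only the step between the genotypes was free of overlap, while for Fgf8 the step between the SmoM2 regions was too. In Fgf5, Fgfr1, Fgfr2 and Fgfr4 SmoM2 hemisphere had the highest mean (5.09, 7.81, 7.71 and 6.69) and SmoM2 vermis the next (5.03, 7.74, 7.66 and 6.61). These neighbours overlapped for Fgf5, Fgfr2 and Fgfr4 and lay apart for Fgfr1, whose lowest SmoM2 hemisphere array read 7.79 and highest SmoM2 vermis array 7.78. Fgfr3 had both wild type groups above both SmoM2 groups, with overlap at every step. Fgf1 also overlapped at every step, and for Fgf2 only wild type vermis, the highest group, lay apart from the next.

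Only Fgf5 and Fgf8 had group means that spanned at least 1, and the genes whose pattern over the 12 arrays was most like theirs were picked from 687 genes of at least that span. Closest to Fgf5 were Arhgap31 (Pearson r = 0.99), Tbata (0.989) and Cbln4 (0.989), which averaged 8.75, 9.72 and 6.53 in SmoM2 hemisphere, against 7.17, 7.70 and 2.93 in wild type hemisphere. Closest to Fgf8 were Wipf3 (0.961), Foxa2 (0.949) and Actc1 (0.944). Foxa2, a transcription factor of the ventral neural tube, averaged 6.90 in SmoM2 and 4.26 in wild type hemisphere, and 8.04 in SmoM2 and 4.24 in wild type vermis. These correlations describe 12 arrays that fall into 2 genotypes, and the 100th gene on each list still correlated at 0.957 and 0.842.

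The 13 other secreted FGF ligands were dim, and none passed as higher. Their means over the 12 arrays ran from 2.80 to 5.29, 11 of them lay below the array median on every array and 2 (Fgf16 and Fgf23) below the lower quartile on every array, so a change in these may not be detectable. Of the 13, 0 rose in either region. In hemisphere cells 2 fell (Fgf21 by 0.57 and Fgf4 by 0.50), and in vermis cells 1 did (Fgf20 by 0.40). Among all genes 7.18% fell with SmoM2 in hemisphere cells and 9.46% in vermis cells, while 14.8% and 17% passed either way. With so few genes, counts of 2 and 1 do not set these ligands apart from all genes. The median of the 13 was -0.11 in hemisphere and -0.21 in vermis cells. At an unadjusted p under 0.05 there were 0 higher in either. Fgf21 averaged 3.24 in SmoM2 and 3.82 in wild type hemisphere (limma adjusted p = 0.0141), and its call was lost without SmoM2 hemisphere replicate 2 (0.064). Fgf4, with adjusted p = 0.047, passed under 4 of 22 alternatives, and Fgf20, with 0.0432, under 9 of 22.

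Of the 3 other FGF homologous factors 1 rose and 1 fell in each region, where 14.8% and 17% of all genes passed either way in hemisphere and vermis. Fgf11 averaged 4.54 ± 0.10 in SmoM2 and 5.32 ± 0.31 in wild type hemisphere (SD, n = 3), and 4.64 ± 0.10 in SmoM2 and 5.77 ± 0.26 in wild type vermis. It fell by 0.78 (limma adjusted p = 0.00404) and by 1.13 (0.00019). Fgf14 averaged 3.80 ± 0.11 in SmoM2 and 3.16 ± 0.11 in wild type hemisphere, and 4.27 ± 0.26 in SmoM2 and 3.20 ± 0.10 in wild type vermis, so it rose by 0.64 (0.00436) and 1.07 (6.13e-05), from wild type values that lay below the lower quartile on all 6 arrays. The wild type level of Fgf14 is therefore known only as low. When all probe sets were averaged, the calls held at smaller differences, 0.32 and 0.51 for Fgf14 and, in the vermis, -0.65 for Fgf11. Fgf12 did not pass (-0.21 and -0.31).

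Among 12 receptor partners and binding proteins 2 rose and 1 fell in each region, where 14.8% and 17% of all genes passed either way in hemisphere and vermis. All that passed were FLRT proteins, membrane proteins with leucine-rich repeats that bind FGF receptors. Flrt2 averaged 8.45 ± 0.24 in SmoM2 and 7.64 ± 0.28 in wild type hemisphere, and 8.39 ± 0.11 in SmoM2 and 7.71 ± 0.24 in wild type vermis. Its differences were 0.81 (limma adjusted p = 0.00418) and 0.69 (0.0117), and the vermis call was lost without wild type vermis replicate 3 (0.55, 0.0577). Flrt3 rose by 0.69 in both regions (0.000814 and 0.000753), and Flrt1 fell by 0.60 (0.00404) and by 0.86 (0.000236), the second being -0.50 with the mean of its probe sets. The other 9, the decoy receptor Fgfrl1 and the Klotho co-receptors Kl and Klb among them, did not pass.

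Most measured genes that FGF and ERK signalling turns on, or that feed back on it, rose with SmoM2. Of 17 measured, 10 rose in hemisphere cells, 9 in vermis cells and 0 fell in either, with medians of 0.61 and 0.43. The share of all genes that rose was 7.62% in the hemisphere and 7.56% in the vermis. Etv5, an ETS transcription factor, read 9.40, 9.48 and 9.43 in SmoM2 hemisphere, against 6.86, 6.08 and 6.73 in wild type hemisphere, and averaged 9.53 ± 0.15 in SmoM2 and 6.57 ± 0.19 in wild type vermis. It rose by 2.88 (7.35-fold, limma adjusted p = 8.18e-08) and by 2.97 (5.69e-08), with no overlap of the genotypes. Spry4, a Sprouty inhibitor of receptor tyrosine kinase signalling, read 5.88, 6.12 and 6.43 in SmoM2 hemisphere, against 4.72, 4.40 and 4.29 in wild type hemisphere, and rose by 1.67 there and by 1.97 in the vermis. Averaged over all its probe sets Spry4 still passed, at 0.64 (adjusted p = 0.000667) and 0.66 (0.00046). Spry2, another Sprouty, rose by 0.94 and 0.95, and Myc, a growth factor responsive transcription factor, by 1.71 and 1.56. The others that passed in both regions, named here after their values were seen, were Spry1, Spred1, Spred2 (0.81 in the hemisphere, and 0.44 with the mean of its probe sets), Dusp5 and Dusp6. Leaving out 1 array kept the counts between 9 and 10 in the hemisphere and between 8 and 10 in the vermis, where Spry1 lost its call without any one of 6 arrays. Etv4, Fos and Egr1 did not pass in either region. Many of these genes also respond to other receptors and to other pathways.

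**Figure D5:**
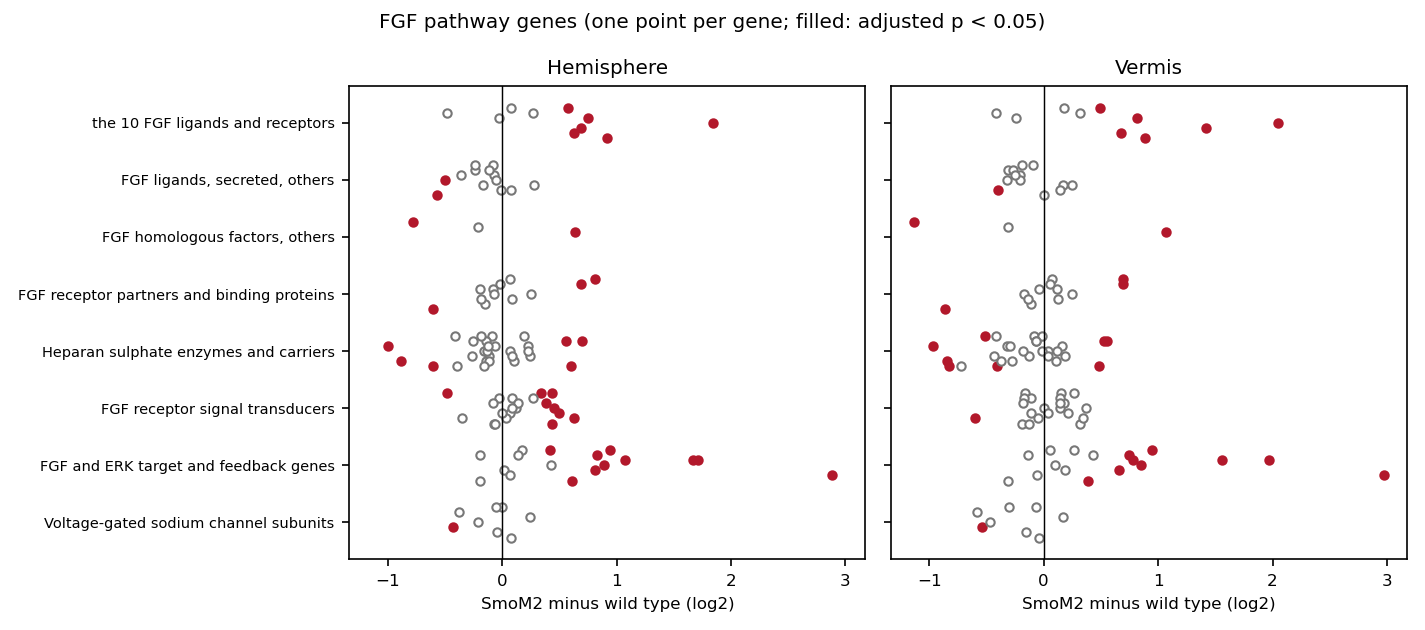
Difference between SmoM2 and wild type (x axis, log2) for the genes of 8 lists, hemisphere left and vermis right, with 1 point per gene and points spread vertically so that they can be told apart. Filled points passed an adjusted p of 0.05. Filled points lie on the right for the 10 ligands and receptors and for the target and feedback genes, and on both sides for the heparan sulphate list.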

How the data were processed

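Per the labels' protocols, RNA of Percoll-enriched granule cell progenitors was hybridised to Affymetrix whole-genome mouse expression arrays. The authors deposited log2 values per probe set, made with Partek and RMA per the submitters' processing notes. The sources used here name no versions. RMA subtracts background, quantile-normalizes and summarises probes, which compresses differences of dim probe sets and leaves no detection call.

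The table held 45101 probe sets on 12 arrays. Of these 64 were controls, which were left out. Without controls 34945 probe sets had 1 symbol, and with controls still counted 932 had several and 9211 none. The brightest set stood for each of 18193 genes. Samples were grouped by their titles, and 3 arrays per group limit the precision. The median SD between arrays of a group was 0.13.

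The tests used limma 3.58.1 under R 4.3.3 (lmFit, eBayes, 4 group means, 8 residual degrees of freedom, two-sided), adjusted over all genes of each of 5 contrasts. The script was tested on simulated data. The brightest of a gene's probe sets was chosen by its mean over all arrays, SmoM2 included. A difference on one set can therefore sway the choice, as it did for Fgf5.

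The 10 genes, the pathway and marker lists and the alternatives were chosen with earlier results of these data known. All 10 genes were named. Of each pathway list up to 4 genes that passed were named, by the size of the mean SmoM2 difference. For genes whose group means span at least 1, the 3 most correlated genes were named. Each probe set was named through the platform annotation, in which 34741 sets had a gene ID found in the reference table and 0 symbols changed.

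Same-numbered hemisphere and vermis arrays deviated together within a genotype over all genes (r = 0.14 to 0.27 in SmoM2 and 0.34 to 0.53 in wild type), so the numbers were taken to pair them. The sources used here do not say whether such arrays came from the same mice. Across genotypes r ran from -0.22 to 0.18 with no common sign, so the numbers were not taken to pair there. The highest of these, 0.18 for vermis replicate 1, lay within the SmoM2 range. The pairing is therefore less certain in SmoM2 than in wild type. Alternatives changed the normalization, the filter on dim genes, the choice of probe set, the moderation, the arrays in the fit, their weights and the block.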

Additional observations from a re-analysis of the deposited data

How the results depend on the processing

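Over 23 alternatives the count of the 10 FGF genes that rose stayed between 4 and 7 in the hemisphere and between 5 and 7 in the vermis, against 6 in each as reported, and no called difference reversed. Leaving out 1 array gave 6 to 7 in each region, 0 in each region comparison and 0 for the interaction. The hemisphere count of 4 came with genes above the median brightness only, a filter that drops Fgf5 and Fgf8 from the test. The vermis count was 5 under that filter, with the mean of all probe sets and without moderation. The call of Fgf8 between hemisphere and vermis in SmoM2 was the one that depended on the block or the weights. With same-numbered arrays of a genotype as a random block 1 gene passed, and with array quality weights 1, against 0 otherwise. With a replicate block over all groups, which the pairing across genotypes does not bear out, 6 of the 10 genes passed for each SmoM2 comparison and 0 for the region comparisons and the interaction, and with a replicate block within each genotype, chosen after seeing the data, they were 0 for both region comparisons and for the interaction. Averaging all probe sets of a gene ended the calls of Fgfr2 and Fgfr4, made that of Fgf13, and turned 2 transducer genes of the hemisphere, Araf to 0.03 (adjusted p = 0.833) and Gab2 to -0.08 (0.584). The cause was not tested. Over all genes 2694 passed for SmoM2 in hemisphere cells (1633 without SmoM2 hemisphere replicate 1 to 4277 without wild type hemisphere replicate 1, over the alternatives on the same genes) and 3096 in vermis cells (1756 without SmoM2 vermis replicate 2 to 4481 with array weights). In wild type between regions they numbered 34, with 3 to 198, and in SmoM2 11, with 1 to 42. RMA values of Fgf2 and of wild type Fgf5 lie below the arrays' lower quartile, where signal over background limits what can be seen.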

Other observations

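Heparan sulphate, the sugar chain that secreted FGFs need to hold their receptors, has its own enzymes and carrier proteins, of which 28 of 29 listed genes were measured. With SmoM2, 3 were higher and 3 lower in hemisphere cells, and 3 higher and 5 lower in vermis cells, with medians of -0.12 and -0.10. Of all genes 14.8% passed either way in hemisphere and 17% in vermis cells, with medians of -0.05 and -0.06. Gpc4, a glypican that carries the chains on the cell surface, read 6.52, 6.60 and 6.79 in SmoM2 hemisphere, against 7.83, 7.50 and 7.58 in wild type hemisphere, and 6.69, 6.34 and 6.39 in SmoM2 vermis, against 7.62, 7.28 and 7.41 in wild type vermis. The genotypes did not overlap, and Gpc4 fell by 1.00 (limma adjusted p = 0.00015) and by 0.97 (0.00019). Glce, the epimerase that converts glucuronic to iduronic acid in the chain, averaged 9.55 ± 0.11 in SmoM2 and 10.43 ± 0.10 in wild type hemisphere, and 9.77 ± 0.07 in SmoM2 and 10.61 ± 0.18 in wild type vermis (SD, n = 3), and fell by 0.88 (9.25e-05) and by 0.84 (0.000128). Ndst3, a sulphotransferase of the same pathway, fell by 0.60 (0.037, and -0.39 with 0.0338 for the mean of its probe sets) and by 0.83 (0.0059), and its hemisphere call was lost without wild type hemisphere replicate 1 (0.0886) or SmoM2 hemisphere replicate 1 (0.105) or 3 (0.126). The glypican Gpc3, which in mice restrains hedgehog signalling, went the other way: it averaged 8.18 ± 0.07 in SmoM2 and 7.48 ± 0.15 in wild type hemisphere, and rose by 0.70 (0.000833) there and by 0.55 (0.00471) in the vermis.

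The kinases and adaptors between FGF receptors and ERK gave small differences. Of 21 measured, 7 were higher and 1 lower in hemisphere cells, and 0 higher and 1 lower in vermis cells, where 3 were higher at an unadjusted p under 0.05. Of all genes 7.62% rose and 7.18% fell in hemisphere cells, and 7.56% rose and 9.46% fell in vermis cells. None of the 21 passed for the interaction, and 0 had an unadjusted p under 0.05 there. Sos1, an activator of RAS, averaged 9.27 ± 0.28 in SmoM2 and 8.64 ± 0.41 in wild type hemisphere (0.63, adjusted p = 0.0498), and 9.27 ± 0.10 in SmoM2 and 8.93 ± 0.30 in wild type vermis (0.34, 0.251). The hemisphere differences of Map2k1 (0.45, 0.0471) and Gab1 (0.44, 0.0425) were of the same kind, and Frs3, an adaptor of FGF receptors, differed by -0.35 in the hemisphere (0.11) and fell by 0.60 in the vermis (0.0104). The hemisphere count of 7 ran from 0 to 7 over the alternatives and was 0 with quantile normalization repeated, with a fit of the compared groups alone or without SmoM2 hemisphere replicate 3, and the Frs3 call was lost without SmoM2 vermis replicate 1 (0.0543).

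Of 8 measured subunits of voltage-gated sodium channels, the partners of FGF homologous factors, 0 rose and 1 fell in each region. That is near the share of all genes that passed either way, 14.8% in the hemisphere and 17% in the vermis. Scn3b averaged 6.58 ± 0.22 in SmoM2 and 7.01 ± 0.11 in wild type hemisphere, and 6.51 ± 0.19 in SmoM2 and 7.05 ± 0.08 in wild type vermis. It fell by 0.43 (limma adjusted p = 0.0393) and by 0.54 (0.0122), and 5 single arrays left out ended the hemisphere call and 2 the vermis call.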
